A study of Mus musculus with 30 samples.

Results

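Dbp, Tef, Hlf and Nfil3 encode transcription factors through which the circadian clock passes part of its time signal to other genes. The rows of the FPKM table that carry these 4 names were taken, 1 row for each gene, out of 51904 genes in all. FPKM, fragments per kilobase of transcript and per unit of mapped reads, scales a level by gene length and by depth, so levels can be set side by side between genes. The FPKM of a sample summed to between 700956 and 922481, so the scale was not the same in every sample. The gene models lie on GRCm38 (mm10) and come from GENCODE M21. Dbp (ENSMUSG00000059824) is at chr7:45705088-45710203 on the plus strand, and Tef (ENSMUSG00000022389) is at chr15:81802421-81826863 on the plus strand. Hlf (ENSMUSG00000003949) is at chr11:90336536-90390895 on the minus strand, and Nfil3 (ENSMUSG00000056749) is at chr13:52967209-52981073 on the minus strand.

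DBP, TEF and HLF are the proline and acidic amino acid rich basic leucine zipper proteins, called PAR bZIP for short, which bind a DNA element known as the D-box and activate transcription there. NFIL3, also called E4BP4, is a related basic leucine zipper protein that binds the same element and represses. In the textbook scheme the activators BMAL1 and CLOCK drive Dbp through E-boxes, the REV-ERB receptors hold down Nfil3 through ROR elements, and activators and repressor then alternate on D-boxes, among them those of Period genes.

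The samples were retinal pigment epithelium (RPE), the pigmented layer that supports the photoreceptors, from 30 male wild-type C57BL/6 mice of 10 to 13 weeks. There were 5 mice at each of 6 zeitgeber times (ZT, hours after lights-on by convention): ZT0, ZT2, ZT4, ZT9, ZT14 and ZT19. Each library came from 1 eye of 1 mouse, 16 left and 14 right eyes in all, and the RPE had been lifted off the choroid with forceps, so other cell layers could come along. The labels name no treatment in any group.

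The depth estimated from the smallest steps of the FPKM values was 12.4 to 23.0 M reads (M, mega) per sample. RPE markers were present at high levels, Rpe65, the isomerase of the visual cycle, with a median of 934 FPKM, although the RPE channel gene Best1 had a median of 0.607 FPKM. Transcripts of other eye tissues were present too: over the samples Krt12, a keratin gene of the cornea, spanned 3.42 to 4704 FPKM. Which cells the 4 transcripts came from was not measured. In such bulk samples fewer cells of a type and less RNA per cell cannot be told apart. The sample ZT14 replicate 3 stood apart: 12754 genes were above 0 there, against 16723 to 19374 in the other 29 samples. Of the genes with a median of 10 FPKM or more, it listed 537 at 0, where the other samples listed 1 to 22. Several values that rest on it are marked. The 24 h fits of the 4 genes, and the tests of rhythm between them, are given with and without it. The other tests, the shares of variance and the fits of other genes include it unless stated.

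Dbp had the clearest time course of the 4 genes. Its level was lowest at ZT0 and highest at ZT9, and the mean of ZT9 was 5.14 times that of ZT0. It was the only one of the 4 genes whose 24 h rhythm passed the threshold over all genes. The time of day accounted for 85.1% of its variance on the log2 scale, against a median of 17.7% over all 16741 genes tested. This share is not corrected for the number of times, so a gene without a time course has some share too.

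In FPKM, Dbp measured 38.2, 40.2, 40.9, 50.8 and 68.7 in the 5 mice of ZT0. At ZT2 the mice measured 45.5, 69.4, 72.9, 88.5 and 96.8 FPKM, and at ZT4 they measured 97.5, 113, 125, 149 and 181 FPKM. Every mouse of ZT4 lay above every mouse of ZT0 and of ZT2, while ZT0 and ZT2 overlapped. The 5 mice of ZT9 had 210.4, 233, 253, 257 and 273 FPKM, above all other 25 mice. At ZT14 the values were 81.65, 107, 118, 129 and 184 FPKM, and at ZT19 they were 40.7, 65.5, 75.8, 81.2 and 81.57 FPKM. Every mouse of ZT14 lay above every mouse of ZT19, with the lowest of ZT14, replicate 3, only just above the highest of ZT19. The means were 47.8 ± 12.7 FPKM at ZT0, 74.6 ± 19.8 at ZT2, 133 ± 32.7 at ZT4, 245 ± 24.4 at ZT9, 124 ± 37.9 at ZT14 and 68.9 ± 17.1 FPKM at ZT19 (SD, n = 5 each). Without replicate 3 the mean of ZT14 was 135 ± 34.1 FPKM (SD, n = 4).

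**Figure D1:**
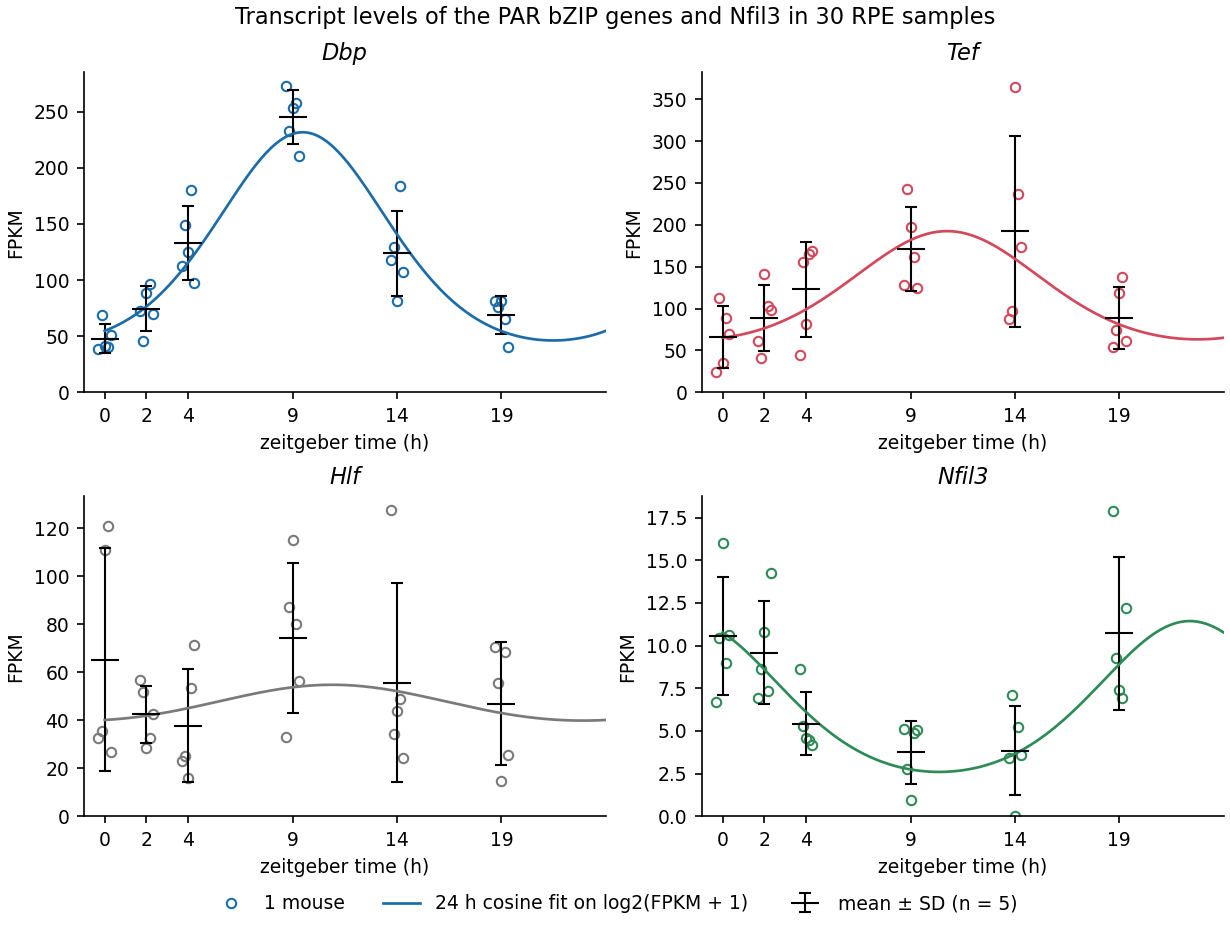
FPKM of Dbp, Tef, Hlf and Nfil3 (vertical axes, each from 0) against zeitgeber time in hours, with 1 circle per mouse, the mean ± SD of 5 mice in black and the fitted 24 h cosine as a line. The 5 Dbp values of ZT9 sit between 210.4 and 273 FPKM, above those of all other times, Nfil3 is lowest at ZT9 and ZT14, and the Hlf values of all 6 times overlap. The mean of Nfil3 at ZT14 includes the sample listed at 0.

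A 24 h cosine on log2(FPKM + 1) gave Dbp an amplitude (peak minus midline of the curve) of 1.15 ± 0.11 (SE, n = 30) with a peak at ZT 9.48 ± 0.33 h. Its adjusted p in limma was 3.73e-07, rank 3 of 16741 genes. Over all genes 18 passed this test, which is 0.108%, and the median amplitude was 0.22. Without ZT14 replicate 3 the amplitude of Dbp was 1.18 (adjusted p = 1.34e-07). In a fit with 1 mean for each time and no assumed shape, Dbp had the smallest p of all genes (adjusted p = 9.62e-06), where 0.0717% of genes passed.

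Of the 15 pairs of times, 5 differed for Dbp past the threshold, against 0.0215% of all pairs of all genes. Relative to ZT0, Dbp was higher on the log2(FPKM + 1) scale by 1.46 at ZT4 (adjusted p = 0.0108, limma), by 2.37 at ZT9 (adjusted p = 7.13e-07) and by 1.34 at ZT14 (adjusted p = 0.00707), each with an SE of 0.23. Of all genes, 0.00597%, 0.0418% and 0.0597% passed in these 3 pairs of times. Dbp was also higher at ZT9 than at ZT2 by 1.74 (adjusted p = 4.22e-04), where 0.0239% of genes passed. From ZT9 to ZT19 it fell by 1.85 on the log2 scale (adjusted p = 6.36e-05), where 0.0478% passed. With the scores of rods, surface epithelium, skeletal muscle, myelin and stroma as terms 2 pairs passed for Dbp. With the rod and stroma scores, with the RPE score, or with runs of animal numbers as a block, 3 passed. The order of the time means was ZT9, ZT4, ZT14, ZT2, ZT19 and ZT0, and no neighbours in this order differed past the threshold, including ZT9 and ZT4 (0.91 ± 0.23, adjusted p = 1). For ZT9 and ZT4 the unadjusted p was 4.53e-04 in limma, and 0 of 16741 genes passed in that pair of times. Its adjusted p thus does not show that Dbp was alike at these times. At an unadjusted p below 0.05 in limma, Dbp had 13 of the 15 pairs, against 6.96% of all pairs of all genes. The samples of 10 of the 15 pairs of times did not overlap, among them ZT4 and ZT9, where over all genes 1.4% of pairs did not overlap.

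Tef had a level like that of Dbp but a much wider spread between mice. Its median over the 30 samples was 108 FPKM, against 92.6 FPKM for Dbp. Its highest time means were those of ZT9 and ZT14, and its fitted rhythm did not pass the threshold over all genes. Time accounted for 41.5% of its variance, and the SD between mice of the same time was 0.74 on the log2 scale, against 0.36 for Dbp and a median of 0.63 over all genes.

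Tef measured 23.8, 34.8, 69.4, 88.3 and 113 FPKM at ZT0. At ZT2 it measured 40.5, 61.0, 98.7, 102.5 and 141 FPKM, and at ZT4 it measured 44.5, 81.0, 156, 165 and 169 FPKM. All 3 morning groups overlapped one another. The mice of ZT9 had 124, 128, 162, 198 and 243 FPKM, and those of ZT14 had 87.5, 97.2, 174, 237 and 365 FPKM. The value of 365 FPKM, the highest of all 30, was in ZT14 replicate 3, the sample with many genes listed at 0. At ZT19 the values were 54.3, 60.9, 74.2, 119 and 138 FPKM. Of the 15 pairs of times, ZT0 and ZT9 alone did not overlap, against 1.4% of all pairs of all genes. The means were 65.9 ± 37.0 FPKM at ZT0, 88.8 ± 39.2 at ZT2, 123 ± 56.7 at ZT4, 171 ± 50.02 at ZT9, 192 ± 114 at ZT14 and 89.2 ± 36.9 FPKM at ZT19 (SD, n = 5 each). Without replicate 3 the mean of ZT14 was 149 ± 70.1 FPKM (SD, n = 4), below that of ZT9.

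The fitted amplitude of Tef was 0.80 ± 0.18 (SE, n = 30) with a peak at ZT 10.7 ± 0.86 h, rank 53 of all genes (adjusted p = 0.162; unadjusted p = 5.20e-04, limma). Without ZT14 replicate 3 the amplitude was 0.74 (adjusted p = 0.287). No pair of times passed for Tef, and 7 of the 15 had an unadjusted p below 0.05 in limma, as did 6.96% of all pairs of all genes. The largest difference was that of ZT14 and ZT0, 1.54 ± 0.44 on the log2 scale (adjusted p = 0.306), and without ZT14 replicate 3 the largest between any 2 times was 1.53. No neighbours in the order ZT14, ZT9, ZT4, ZT19, ZT2 and ZT0 differed past the threshold. The test among the 6 times gave an adjusted p of 0.402.

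Mice with more Tef also had more RPE marker RNA. The RPE score is the mean log2(FPKM + 1) of 10 marker genes of these cells, and it had a mean of 7.81 at ZT0 and of 8.30, 8.33 and 8.50 at ZT9, ZT14 and ZT19. The summed FPKM of the 10 genes ran from 6028 to 10778 at ZT0 and from 11491 to 15890 at ZT19. Over the deviations of the 30 samples from the means of their times, Tef had a Pearson r of 0.60 with this score, Dbp 0.44, Hlf -0.05 and Nfil3 -0.14, as a description, since both measures of a sample share its library and depth. Without ZT14 replicate 3 the r of Tef was 0.62 and that of Dbp 0.49. Tef had an r of -0.43 with the surface epithelium score, whose mean was 8.55 at ZT0 and 6.44 at ZT19. Its r with the stroma score was 0.31. Dbp had an r of 0.37 with the score of melanocytes and Schwann cells, 0.32 with endothelium and 0.31 with immune cells. Its lowest r was -0.18, with surface epithelium. With the RPE score as a term the amplitude of Tef was 0.64 (adjusted p = 0.331) and that of Dbp 1.10 (adjusted p = 2.55e-07). Without the score these amplitudes were 0.80 ± 0.18 and 1.15 ± 0.11 (SE, n = 30). Whether the score changed either amplitude was not tested. The score itself differed in mean between times, and this setting was chosen after seeing the data. The part of other tissues in the level of Tef was not tested.

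**Figure D2:**
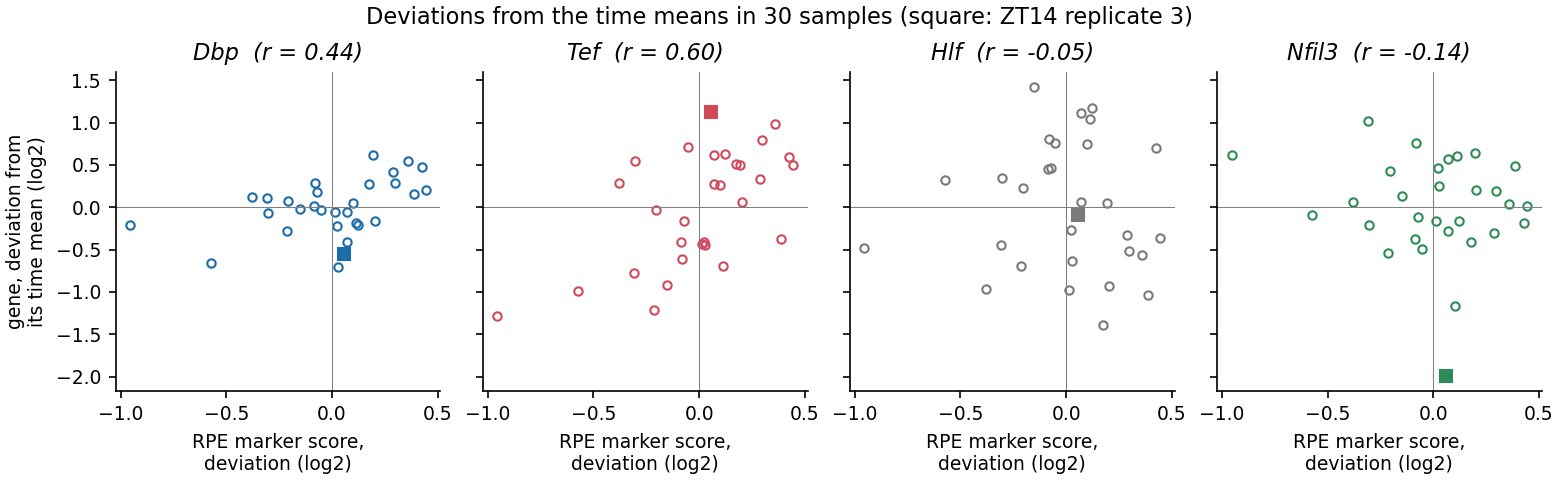
Deviation of each gene from its time mean (vertical axis, log2) against the deviation of the RPE marker score (horizontal axis, log2) in 30 samples, with Pearson r in each title and ZT14 replicate 3 as a square. Tef, with r = 0.60, rises with the score more closely than Dbp, with r = 0.44, and Hlf and Nfil3, with -0.05 and -0.14, show little slope.

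RefSeq lists 2 starts for Tef, and the windows upstream of both hold an E-box, the element bound by BMAL1 and CLOCK. These windows are shown because they are the only ones among the 4 genes with any of the motifs searched. The window of 250 bases before the start inside the gene, at chr15:81811164-81811413 on the plus strand of GRCm38.p6, has the E-box (capitals) at positions -138 to -133 from that start.

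Tef second start: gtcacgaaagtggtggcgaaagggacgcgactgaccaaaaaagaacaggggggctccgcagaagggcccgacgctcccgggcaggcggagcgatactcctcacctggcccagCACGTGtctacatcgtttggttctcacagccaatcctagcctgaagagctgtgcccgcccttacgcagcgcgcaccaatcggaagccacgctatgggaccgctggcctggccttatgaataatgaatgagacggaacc

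At the outer start of the gene the E-box (capitals) lies at positions -127 to -122 from the RefSeq start, within an exon of the GENCODE model, and only the site is given.

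Tef first start: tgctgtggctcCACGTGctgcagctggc

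The motifs searched on both strands were the E-box CACGTG, the E-box variant CACGTT, the D-boxes TTATGTAA and TTACGTAA, and the ROR element, whose core GGTCA follows an A- and T-rich flank. Of 32851 RefSeq windows of this length, 6.02% hold CACGTG, so a match is not rare. The Dbp, Hlf and Nfil3 windows hold none of the 5 motifs, which says only that these letters are not in those 250 bases. The table gives a single value for each gene, so the transcripts from the 2 Tef starts were not separated.

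Hlf showed no time course that could be told from the spread between mice. Its median was 46.3 FPKM, and its levels ranged from 14.7 to 128 FPKM. No pair of times was without overlap, and time accounted for 16.6% of its variance, near the median over all genes.

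Hlf measured 26.7, 32.5, 35.7, 110.8 and 121 FPKM at ZT0. At ZT2 it measured 28.5, 32.6, 42.8, 51.8 and 56.7 FPKM, and at ZT4 it measured 16.1, 22.9, 25.1, 53.5 and 71.3 FPKM. The mice of ZT0 fell into 3 low and 2 high values, with nothing between 35.7 and 110.8 FPKM. At ZT9 the values were 32.9, 56.6, 80.1, 87.0 and 115 FPKM, and at ZT14 they were 24.1, 34.1, 44.0, 48.7 and 128 FPKM. At ZT19 they were 14.7, 25.4, 55.5, 68.6 and 70.5 FPKM. Mice above and below the median of 46.3 FPKM occurred at every time, although at ZT2 none was above 56.7 FPKM. The means ran from 37.8 ± 23.6 FPKM at ZT4 to 74.4 ± 31.2 FPKM at ZT9 (SD, n = 5 each), with 65.3 ± 46.4 at ZT0, 55.7 ± 41.3 at ZT14, 47.0 ± 25.5 at ZT19 and 42.5 ± 12.05 FPKM at ZT2.

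The fitted amplitude of Hlf was 0.22 ± 0.22 (SE, n = 30), near the median of all genes, and its fitted peak of ZT 10.9 had an SE of 3.63 h (adjusted p = 0.891, limma). The amplitude was 0.24 without ZT14 replicate 3 (adjusted p = 0.903, limma). Of the 15 pairs of times 0 passed and 1 had an unadjusted p below 0.05 in limma, ZT9 against ZT4 (1.05 ± 0.50, adjusted p = 1), a share close to the 6.96% of all pairs of all genes. No neighbours in the order ZT9, ZT0, ZT14, ZT2, ZT19 and ZT4 differed past the threshold. Within times, Hlf had an r of -0.44 with the score of myelin genes, -0.42 with that of melanocyte and Schwann cell genes and -0.39 with that of endothelium, and positive values of 0.34 with surface epithelium and 0.32 with cones. The summed FPKM of the 7 myelin genes varied from 83.2 to 5813 within ZT4 alone. The part of these tissues in the spread of Hlf was not tested.

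Nfil3, the repressor, was the least abundant of the 4 genes and had the opposite time course. Its levels were highest at ZT19, ZT0 and ZT2 and lowest at ZT9 and ZT14. Its median over all samples was 6.92 FPKM, and outside ZT14 replicate 3 its FPKM corresponds to an estimated 33.8 to 532 reads per sample. In that sample Nfil3 is listed at 0.

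Nfil3 measured 6.67, 9.00, 10.5, 10.6 and 16.0 FPKM at ZT0. At ZT2 it measured 6.93, 7.36, 8.63, 10.8 and 14.3 FPKM, and at ZT4 it measured 4.17, 4.48, 4.57, 5.30 and 8.63 FPKM. All but 1 of the ZT4 mice lay below every mouse of ZT0 and ZT2. At ZT9 the mice measured 0.942, 2.77, 4.90, 5.04 and 5.11 FPKM. The 4 mice of ZT14 other than replicate 3 measured 3.39, 3.58, 5.23 and 7.09 FPKM, and those of ZT19 measured 6.91, 7.40, 9.28, 12.2 and 17.9 FPKM. The mice of ZT9 all lay below those of ZT0, ZT2 and ZT19, and these 3 of 15 were the only pairs of times without overlap, against 1.4% of all pairs of all genes, while ZT14 overlapped all other times. The means were 10.6 ± 3.45 FPKM at ZT0, 9.60 ± 3.02 at ZT2, 5.43 ± 1.84 at ZT4, 3.75 ± 1.85 at ZT9 and 10.7 ± 4.49 FPKM at ZT19 (SD, n = 5 each), and 4.82 ± 1.72 FPKM over the 4 mice of ZT14 other than replicate 3.

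The fitted amplitude of Nfil3 was 0.89 ± 0.18 (SE, n = 30) with a peak at ZT 22.4 ± 0.72 h, rank 21 of all genes and just outside the threshold (adjusted p = 0.0672, limma). Without ZT14 replicate 3 the amplitude was 0.80 ± 0.14, the peak ZT 21.7 and the adjusted p 0.0130, which passes. Without ZT14 replicate 2, which had the highest Nfil3 of its time, it passed too (0.93, adjusted p = 0.0400), and it did not pass without any other single sample. Time accounted for 52.9% of the variance of Nfil3. No pair of times passed, with 6 of 15 at an unadjusted p below 0.05 in limma, against 6.96% of all pairs of all genes. The largest difference was that of ZT14 and ZT0, -1.49 ± 0.42 on the log2 scale (adjusted p = 0.292), and without ZT14 replicate 3 the largest between any 2 times was 1.35. No neighbours in the order ZT0, ZT19, ZT2, ZT4, ZT9 and ZT14 differed past the threshold.

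When the 3 times in the light after lights-on (ZT2 to ZT9) were set against ZT14 and ZT19, none of the 4 genes was called. For Dbp the difference of day minus night was 0.56 ± 0.15 on the log2 scale (adjusted p = 0.276, limma). The values were -0.05 ± 0.29 for Tef, 0.05 ± 0.32 for Hlf and -0.02 ± 0.27 for Nfil3, so 0 of the 4 genes passed, against 0.0299% of all genes. Without ZT14 replicate 3 the value of Nfil3 was -0.27. Tef had its highest means and Nfil3 its lowest at ZT9 and ZT14, which lie on opposite sides of this contrast. A value near 0 thus does not show that these 2 genes were flat over the day. At an unadjusted p below 0.05 the contrast had 1 of the 4, Dbp, and 10.5% of all genes.

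Whether the 4 genes differed in rhythm was tested on the difference in log2(FPKM + 1) of 2 genes within each sample. The scale of the library cancels in it in large part, but not fully at low FPKM, because 1 is added. The 24 h amplitude of that difference was compared with 100000 permutations of the times over the samples, for 6 pairs of genes. Dbp and Nfil3 differed most, with an amplitude of 2.03 ± 0.19 (SE, n = 30, permutation p = 1e-05, the smallest that these permutations can give, adjusted over the 6 pairs 6e-05). Tef and Nfil3 differed by 1.69 ± 0.31 (permutation p = 1.1e-04, adjusted 3.3e-04), and Hlf and Nfil3 by 1.12 ± 0.30 (permutation p = 0.00284, adjusted 0.00568). Nfil3 thus differed in rhythm from each of the 3 PAR bZIP genes. These amplitudes were 1.98 with Dbp, 1.53 with Tef and 1.03 with Hlf without ZT14 replicate 3 (adjusted permutation p = 6e-05, 1.5e-04 and 0.0071).

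Among the PAR bZIP genes, Dbp and Hlf differed by 0.94 ± 0.28 (permutation p = 0.00534, adjusted 0.00801). Dbp and Tef differed by 0.48 ± 0.20 (permutation p = 0.0509, adjusted 0.0611), which misses the threshold and does not show that their rhythms are alike. That pair passed without ZT14 replicate 3 (0.47, adjusted 0.0255 by permutation) and without any 1 of 4 other samples, ZT0 replicate 1, ZT4 replicate 5 and ZT19 replicates 1 and 2, where the adjusted permutation p lay between 0.0151 and 0.0395. Tef and Hlf differed by 0.57 ± 0.31 (permutation p = 0.185, adjusted 0.185). The values without ZT14 replicate 3 were 0.96 for Dbp and Hlf (adjusted permutation p = 0.00917) and 0.50 for Tef and Hlf (adjusted permutation p = 0.266).

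The level of Dbp over that of Nfil3 within a sample moved over a wide range. The mean difference of log2(FPKM + 1) was 2.09 ± 0.49 at ZT0, 2.83 ± 0.59 at ZT2 and 4.39 ± 0.55 at ZT4 (SD, n = 5 each). It was 5.81 ± 0.74 at ZT9, 4.92 ± 0.88 at ZT14 and 2.61 ± 0.69 at ZT19. The lowest sample of ZT9, at 5.13, lay above the highest of ZT4, at 5.05, and every sample of ZT4, ZT9 and ZT14 lay above the highest of ZT0, ZT2 and ZT19, at 3.55, with the lowest of ZT4 only just above it at 3.56. The value of 6.37 in ZT14 replicate 3 rests on the Nfil3 value listed at 0, and the other 4 samples of ZT14 ran from 4.01 to 4.89, with a mean of 4.56 ± 0.39 (SD, n = 4).

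Summed, the 3 PAR bZIP genes reached a mean of 179 FPKM at ZT0, 206 at ZT2, 294 at ZT4, 491 at ZT9, 372 at ZT14 (342 without replicate 3) and 205 FPKM at ZT19. The mean share of Dbp in this sum was not ordered by time as the sum was. Dbp had 28.9% ± 9.81 of it at ZT0, 47.6% ± 12.8 at ZT4 and 50.9% ± 8.43 at ZT9 (SD, n = 5). At ZT14, with the second largest sum, it had 35.2% ± 11.9 (39.8% without replicate 3), near the 36.0% of ZT2 and the 34.1% of ZT19. Hlf had 35.4% ± 18.7 at ZT0 and 14.8% ± 4.61 at ZT9. The Dbp shares of ZT0 and ZT9 did not overlap, at 16.1% to 40.5% and 41.4% to 63.0%. Tef had the largest mean share at ZT14, 49.1% ± 18.5 (SD, n = 5). More Tef than Dbp was held by 3 of 5 samples at each of ZT0, ZT2, ZT14 and ZT19, by 2 of 5 at ZT4 and by 1 of 5 at ZT9. In ZT14 replicate 3 Tef had 74.4% and Dbp 16.6%, and without it the mean share of Tef at ZT14 was 42.7% ± 13.7 (SD, n = 4), below that of ZT19 at 43.3%. These shares were not tested for a rhythm of their own.

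**Figure D3:**
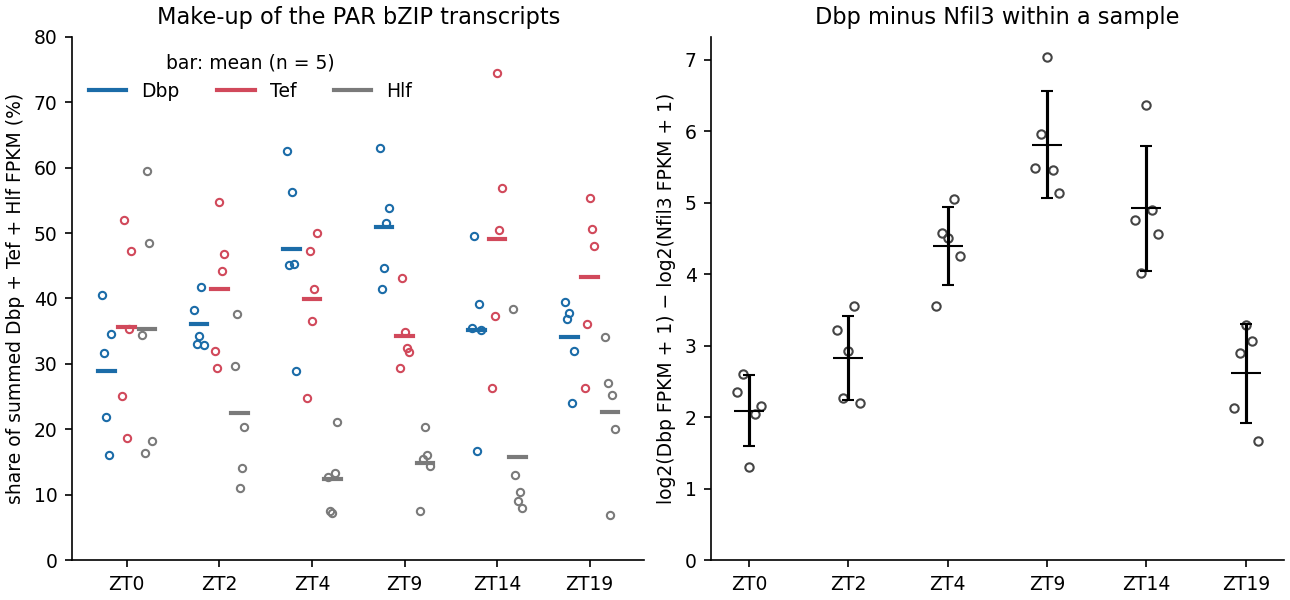
Left, the share of the summed FPKM of Dbp, Tef and Hlf that each gene holds (percent, 1 circle per mouse, bars are means of 5 mice) at 6 zeitgeber times. Right, log2(Dbp FPKM + 1) minus log2(Nfil3 FPKM + 1) in each mouse with mean ± SD (n = 5); the mean goes from 2.09 at ZT0 to 5.81 at ZT9 and is 2.61 at ZT19.

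Within times the 4 genes did not deviate as 1 block. After the time means were removed, Dbp and Tef had a Pearson r of 0.34 over the 30 samples, Tef and Nfil3 of -0.43 and Dbp and Nfil3 of 0.25. Hlf had an r between -0.11 and 0.02 with the other 3. Without ZT14 replicate 3, which had the highest Tef and Nfil3 listed at 0, these values were 0.52 for Dbp and Tef, -0.29 for Tef and Nfil3 and 0.01 for Dbp and Nfil3. They are descriptions over samples whose 2 values share a library and its depth.

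The regulators of these genes were measured in the same samples, in lists drawn from textbook knowledge. In the 24 h fit, which 0.108% of all genes passed, 1 of the 3 E-box activators passed, Arntl, which encodes BMAL1 (amplitude 1.55 ± 0.15, peak ZT 23.5 ± 0.38 h). Npas2 (0.91 ± 0.18, peak ZT 2.10, adjusted p = 0.0745) and Clock (0.30 ± 0.11, adjusted p = 0.509) did not. The fitted peak of Dbp came 9.94 h after that of Arntl, and that of Nfil3 came 1.17 h before it; these gaps were not tested. Of the 8 E-box repressors 3 passed, Per1, Per2 and Per3, while Ciart (adjusted p = 0.107), Bhlhe41 (0.119) and Cry2 (0.160) came nearest among the others. The median amplitude was 0.91 over the activators and 0.74 over the repressors, against 0.22 over all genes.

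Of 4 genes that act on ROR elements 2 passed the 24 h fit, against 0.108% of all genes. Nr1d1, the REV-ERB alpha gene, peaked at ZT 7.40 ± 0.30 h and Nr1d2, the REV-ERB beta gene, at ZT 10.8 ± 0.37 h, with the fitted peak of Dbp between them. Rora and Rorb, with amplitudes of 0.10 ± 0.13 and 0.19 ± 0.23, did not pass. Nfil3 was low at the 2 times at which Nr1d2 was highest, at 57.1 ± 4.87 FPKM at ZT9 and 51.3 ± 12.3 FPKM at ZT14 (SD, n = 5). Nr1d1 was highest at ZT9, at 71.4 ± 8.23 FPKM, and at ZT4, at 57.9 ± 7.90 FPKM, and had 23.8 ± 8.199 FPKM at ZT14 (SD, n = 5), where Nfil3 was still low. Of 4 clock genes with ROR elements, Arntl, Npas2, Clock and Cry1, 1 passed, Arntl, against the same 0.108% of all genes.

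**Figure D4:**
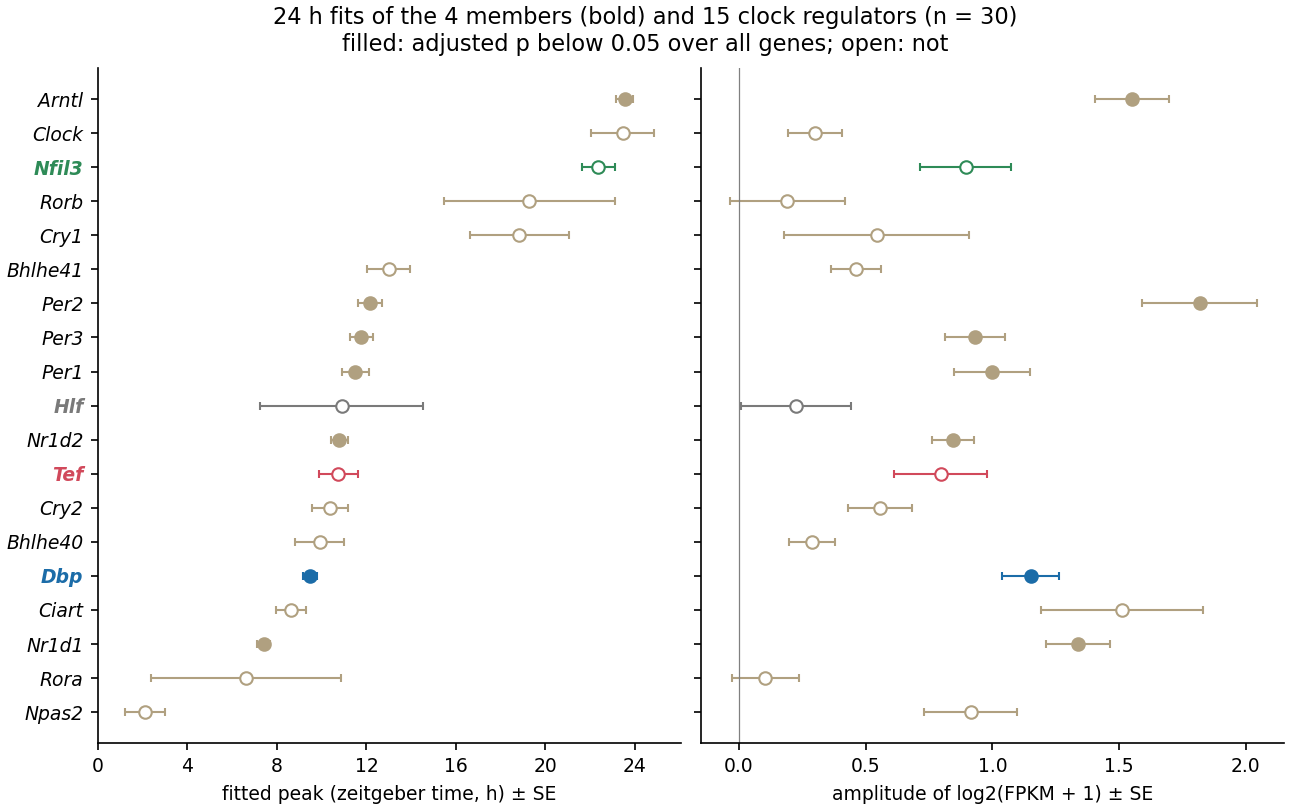
Fitted peak time (left, hours, ± SE) and amplitude of log2(FPKM + 1) (right, ± SE) for Dbp, Tef, Hlf, Nfil3 and 15 clock regulators, ordered by peak, from 24 h fits to 30 samples; filled circles mark an adjusted p below 0.05. Dbp, at ZT 9.48, lies between Nr1d1 and Nr1d2, and Nfil3, at ZT 22.4, lies before Clock and Arntl; the wide bars of Hlf span 3.63 h on each side.

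Genes on which PAR bZIP proteins and NFIL3 are known to act were next. Of 7 clock genes with D-boxes 5 passed the 24 h fit, against 0.108% of all genes. The median amplitude was 0.93 over the 7 and 0.22 over all genes. The 5 were Per1 (1.00 ± 0.15, peak ZT 11.5), Per2 (1.82 ± 0.23, ZT 12.1), Per3 (0.93 ± 0.12, ZT 11.8), Nr1d1 and Nr1d2, and the 2 others were Rora and Rorb. The fitted peaks of the 3 Period genes came 2.01, 2.67 and 2.29 h after that of Dbp, in that order. That of Nr1d2 came 1.31 h after it, but that of Nr1d1 came 2.08 h before it, and these gaps were not tested. The list shares Nr1d1, Nr1d2, Rora and Rorb with the genes that act on ROR elements and the Period genes with the E-box repressors, so these counts are not independent of one another.

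RefSeq promoter windows were found for 6 of the 7 genes with D-boxes, and Per3 was the only one with a D-box letter match. Its window is shown because it holds 2 copies of TTATGTAA (capitals), at positions -205 to -198 and -158 to -151 from the start. It lies at chr4:151044666-151044915 on GRCm38.p6 and is given 5′ to 3′ along the gene, which is on the minus strand.

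Per3 promoter: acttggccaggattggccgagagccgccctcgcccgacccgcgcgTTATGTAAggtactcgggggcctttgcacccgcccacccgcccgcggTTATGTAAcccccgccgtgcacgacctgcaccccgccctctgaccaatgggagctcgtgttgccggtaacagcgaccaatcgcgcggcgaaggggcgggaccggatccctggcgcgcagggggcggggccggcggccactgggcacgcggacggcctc

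Of all 32851 windows 0.819% hold TTATGTAA and 0.113% hold TTACGTAA. A match of letters is not a measured binding site. Per3 measured 5.11 ± 0.60 FPKM at ZT2 and 19.2 ± 3.05 FPKM at ZT9 (SD, n = 5).

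Known targets outside the clock gave no called rhythm. The list held 9 genes known as PAR bZIP targets from liver and other tissues, and 5 of them were expressed enough to be tested. None of the 5 passed in limma, with a median amplitude of 0.36, and 1 had an unadjusted p below 0.05, where 8.76% of all genes did. That gene was Alas1, the first enzyme of haem synthesis, with an amplitude of 0.36 ± 0.11 and a peak at ZT 11.99 (adjusted p = 0.421). Por, the electron donor of cytochrome P450 enzymes, had 0.26 ± 0.11 (adjusted p = 0.588), and the cytochrome gene Cyp2a5 had 0.82 ± 0.49 (adjusted p = 0.739). Cyp7a1, the bile acid synthesis enzyme, and Tshb, the thyrotropin subunit of the pituitary, were at 0 in all samples, and Nr1i3 and Cyp2b10 were below the filter. With so few genes passing at all, a count of 0 of 5 is near the share of all genes.

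The C/EBP genes encode relatives of the same bZIP class and served as a comparison. None of the 5 tested passed in limma, with a median amplitude of 0.18, and 1 had an unadjusted p below 0.05, Cebpd (0.42 ± 0.13, peak ZT 15.2, adjusted p = 0.463). Over all genes 0.108% passed, 8.76% had an unadjusted p below 0.05 in limma, and the median amplitude was 0.22. A count of 0 of 5 is thus near the share of all genes. Cebpb had 0.35 ± 0.17 (adjusted p = 0.660) and Cebpa 0.18 ± 0.15 (adjusted p = 0.855), and Cebpe was not tested.

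The genes whose log2(FPKM + 1) was most like that of each of the 4 genes were listed by Pearson r over the 30 samples, as a description. The nearest to Dbp were Nr1d2 (r = 0.83), Nr1d1 (0.74), Slc9a3r1 (0.70), Nog (0.65) and Tspan4 (0.65), and the most opposite were Gtf2a2 (-0.68), Leo1 (-0.67) and Senp2 (-0.66). Without ZT14 replicate 3, Tef was among the 5 nearest to Dbp with an r of 0.72, and Arntl was among the 3 most opposite (-0.74). The nearest to Tef were 1810041L15Rik (0.80), Crim1 (0.72), Jam3 (0.72), Acaca (0.72) and Sema3c (0.71), and the most opposite Lurap1l (-0.74), Serpinb2 (-0.72) and Ltf (-0.72). Rhobtb2 (0.72) and Dbp (0.72) were among the 5 nearest to Tef when ZT14 replicate 3 was left out. None of the 8 genes named over 30 samples was called rhythmic, with adjusted p from 0.162 to 0.675 in limma.

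The list for Hlf was led by Them7 (0.70), Wtap (0.64), Baz2a (0.63), Ipmk (0.63) and Cav2 (0.63), with Vim (-0.72), Gng11 (-0.70) and Cfl1 (-0.69) at the other end. Gk5 (0.67) and Rasef (0.64) took the places of Ipmk and Cav2 when ZT14 replicate 3 was left out. The list for Nfil3 rested on ZT14 replicate 3. Over 30 samples it was led by Timm17b (0.76), Ndufv1 (0.75), Zbtb25 (0.74), Fbxo44 (0.73) and Cradd (0.72), with Il12b (-0.72), Cracr2a (-0.71) and Uggt1 (-0.71) at the other end. Without that sample these 8 had an r of 0.59, 0.64, 0.58, 0.49, 0.52, -0.50, -0.50 and -0.54 with Nfil3. The genes most opposite to Nfil3 were then Nr1d2 (-0.73), Gm27003 (-0.70) and Dbp (-0.70), and the nearest was Edn1 (0.66), which encodes endothelin.

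Reads of neighbouring genes can add to a value where the counting does not use strand. Exons of Dbp overlap those of Sphk2, a sphingosine kinase gene on the opposite strand, and the strand setting of the libraries is not given in the sources used here. Sphk2 had a median of 18.1 FPKM, an amplitude of 0.16 ± 0.16 (adjusted p = 0.896, limma) and an r of -0.14 with Dbp over the 30 samples. The part of Sphk2 reads in the value of Dbp was not tested. Tef overlaps the antisense gene Gm17597, which had a median of 0 and at most 6.83 FPKM. Hlf and Nfil3 overlap no other gene's exons in the annotation.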

How the data were processed

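RNA of retinal pigment epithelium was sequenced as single reads of 75 bases, with a mean of 20 M reads (M, mega) per sample, per the labels' protocols. STAR, Cufflinks, DESeq2 and the build mm10 are named in the submitters' processing notes, without versions or roles. The deposited table holds 1 value per gene and sample, written with decimal commas, which the authors computed as FPKM; other quantities such as counts were not used here, and the annotation the authors used is not given in the sources used here. Each of the 30 columns matched 1 sample by animal number and eye, and 0 columns were left over. Replicates were numbered in accession order.

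The filter asked for 1 FPKM or more in 5 or more samples and left 16741 genes. Their log2(FPKM + 1) was fitted by limma (version 3.58.1, R 4.3.3, trend on), after tests on simulated data. One fit had a 24 h cosine and sine of ZT, another 1 mean per time. The p-values are two-sided, Benjamini-Hochberg adjusted over all genes kept, and 0.05 was the threshold; for pairs of times they were adjusted within each pair. A fold on this scale understates the change of low genes. Pairs of members were compared by permutation in Python 3.11.15 with numpy 2.4.6. Depth was estimated from the FPKM steps of single-transcript genes with 199 bases taken off the length, and is not a deposited number. Promoter windows come from RefSeq on GRCm38.p6.

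The 4 genes and all lists were chosen with earlier results of these data known, and some list members are not reported here. The genes named beside the 4 were, for each, the 5 with the highest and the 3 with the lowest r, and in each list every gene past the threshold and otherwise up to 3 with the smallest p. The alternatives were another pseudocount, 2 other filters, rescaling, no trend, marker scores, eye or runs of animal numbers as terms, and leaving out each sample. Results for the 12 marker lists, RPE, rods, cones, inner retina, surface epithelium, skeletal muscle, myelin, stroma, endothelium, immune cells, blood, and melanocytes and Schwann cells, were alike in that 0 of their genes were called in the 24 h fit. Over all genes 0.108% passed, so this does not show that the tissue make-up was even over the times. The mean surface epithelium score was 8.55 at ZT0 and 6.44 at ZT19.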

Additional observations from a re-analysis of the deposited data

Results flagged for a closer look

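In 24 groups of 5 mice (4 genes at 6 times), the highest or lowest mouse was compared with its nearest neighbour. In 2 groups it stood far from the other 4, where chance flags about 1 in 20 groups of normally distributed values. A count of 2 of 24 is near that rate. The comparison used FPKM, not the log2 scale of the other tests. Hlf at ZT14 was 127.7 FPKM in replicate 1, and the next mouse had 48.69 FPKM. The gap was 0.763 of the whole range of that time, above the limit of 0.71 for 5 samples. Nfil3 at ZT4 was 8.629 FPKM in replicate 1, with the next mouse at 5.303 FPKM and a gap of 0.746 of the range. The 365 FPKM of Tef and the Nfil3 value listed at 0, both in ZT14 replicate 3, did not pass this limit.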

How the results depend on the processing

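The rhythm of Dbp passed in all 10 other settings and in all 30 fits without 1 sample, with amplitudes from 1.10 to 1.19, and those of Tef and Hlf passed in none. The call of Nfil3 was not made in the 10 other settings (adjusted p from 0.0562 to 0.257); leaving out 1 sample gave amplitudes from 0.80 to 0.96. For Dbp against Tef that range was 0.41 to 0.59. Of the pairs of times, 5 for Dbp, 2 remained past the threshold in number with 5 marker scores as terms, and 3 each with rod and stroma scores, with runs of animal numbers as a block and with the RPE score, a setting chosen after seeing the data; the cause was not tested. The number of genes called for day against night was 5, and 3 with the RPE score. The differences of day minus night of Hlf, Nfil3 and Tef, all near 0, changed sign. Hlf gave -0.0443 with 5 marker scores, -0.00639 with rod and stroma scores and -0.15 with the runs, and from -0.12 to 0.23 without 1 sample. Nfil3 gave 0.22 with a pseudocount of 0.1, 0.15 with the runs, and -0.27 to 0.10 without 1 sample. Tef gave 0.32 with 5 marker scores, 0.0490 with rod and stroma scores, 0.28 with the RPE score, and -0.17 to 0.0902 without 1 sample. Rescaling by median ratios moved the median of a sample by -0.16 to 0.02 log2. No paired analysis was possible because the labels give no replicate numbers that pair mice across times. With 5 mice per time and an SE of 0.44 to 0.50 log2 for a pair of times in Tef and Hlf, changes of that size could not be resolved, and intervals from read counts were not possible for FPKM.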
